A study of Mus musculus with 6 samples.

Results

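Synaptic vesicle and exocytosis genes were followed in Hes1-reporting and non-reporting cells of mouse small-cell lung cancer. Its members were found by a pattern of gene symbols, without their measured values, and the pattern was proposed with earlier results of these data known. It holds the vesicle SNAREs (Vamp), the syntaxins (Stx), the SNAP-25 family (Snap), the syntaxin-binding proteins (Stxbp), the complexins (Cplx), Unc13, Rims and Rab3 proteins, the synaptotagmins (Syt), the vesicle glycoproteins Sv2, synaptophysin (Syp) and the synapsins (Syn). The rule found 73 genes among 22179 genes measured, each taken from the array row with the highest mean among the rows that name exactly 1 gene. Snap91 is in the set by its symbol, although it encodes a clathrin adaptor and no SNARE. Stxbp3-ps is listed as a separate symbol beside Stxbp3.

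The GFP-high group and the GFP-negative group, which the labels also call negative or low, came from the same kind of animal. These were mice with conditional alleles of Rb, p53 and p130, deleted by adenovirus carrying Cre and given into the trachea, and with a GFP reporter allele of Hes1. Tumours were taken 5 to 6 months later, those of 3 mice were pooled, and cells were sorted by GFP. All samples therefore share the triple deletion, the virus and the reporter allele. The sources used here do not give the strain, the age, the sort gates or the promoter that drives Cre. There were 3 arrays in each group, titled as biological replicates. Hes1 itself, the gene reported on, read 10.49, 10.27 and 10.43 in GFP-high cells, against 6.93, 6.98 and 6.65 in GFP-negative cells on the log2 scale (3.54 ± 0.13, adjusted p = 4.87e-07 by limma), with the groups far apart. Nothing says that the replicates came from separate pools of mice, so the p-values measure the spread between these samples.

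In regulated exocytosis a vesicle SNARE of the Vamp family zips together with a syntaxin and a SNAP-25 family protein on the target membrane, and this pulls the membranes into fusion. Unc13 and syntaxin-binding proteins of the Munc18 type prepare the syntaxin, complexins hold the assembled complex, and synaptotagmins trigger fusion when calcium enters. Neurons and neuroendocrine cells use the neuronal members of each family, and small-cell lung cancer is commonly recognised by synaptophysin, while other cells secrete with sister genes such as Snap23, Stx3 and Vamp8.

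More members of this machinery were lower than higher in GFP-high cells. Of a panel of 14 neuronal or regulated-secretion members, 13 were lower and Cplx1 did not pass. Of a panel of 10 general or epithelial members, Snap23, Vamp8, Stxbp3 and Unc13d were higher, Syt7 was lower and 5 did not pass. Both panels were drawn up with these results known and do not hold every neuronal member: Syn3 was higher, and Vamp1, Rims4, Unc13c, Syt10, Cplx3 and Cplx4 did not pass. Values are log2 expression, and a change is GFP-high minus GFP-negative on that scale, with its standard error and 3 arrays per group, tested with limma and called at a Benjamini-Hochberg adjusted p under 0.05 over all genes. Folds are of the higher group mean over the lower. Of the 73 genes, 47 passed (64.4%, against 30% of all genes). Among them 34 were lower (46.6%) and 13 were higher (17.8%), and the other 26 genes did not pass. Over all genes 17% were lower and 13% were higher. A fall of at least 1 was seen for 25 members (34.2%, against 6.02% of all genes), and a fall of at least 2 for 13 members (17.8%, against 1.24%). Rises of at least 1 were seen for 5 members (6.85%), close to the 5.63% of all genes, and rises of at least 2 for 3 members (4.11%, against 2.22%). The median change was -0.37 over the members and 0.01 over all genes. No filter on low values was used. The 3 arrays of each group did not overlap for 56 members (76.7%, against 44.6% of all genes). These were 38 on the lower side (52.1%, against 24.6% of all genes) and 18 on the higher side (24.7%, against 20%).

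**Figure D1:**
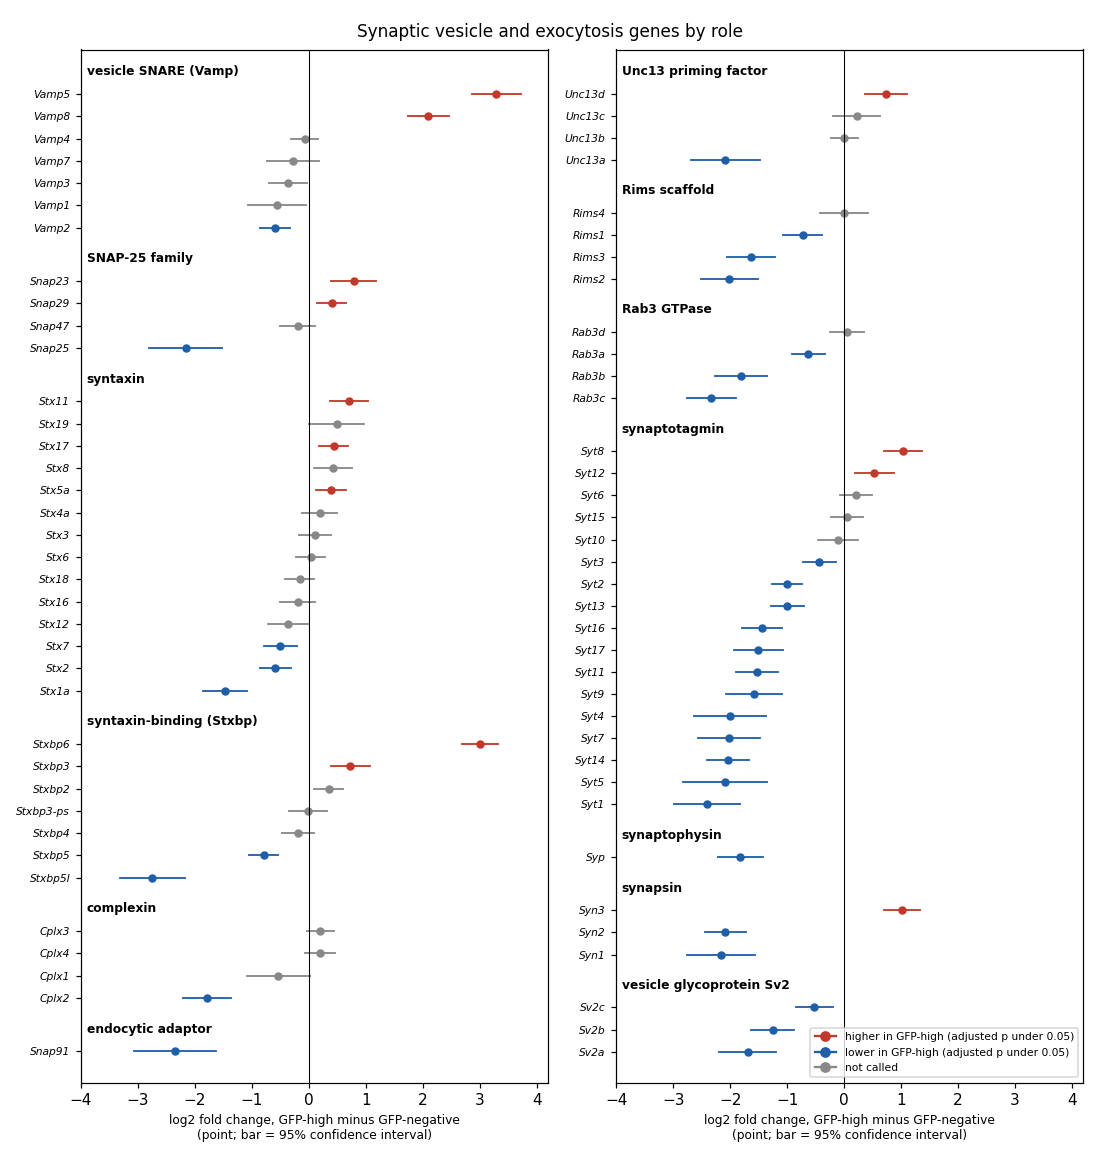
Log2 fold change (x axis, GFP-high minus GFP-negative) of all 73 members with 95% confidence intervals, grouped by role, from 3 arrays per group. The 34 members called lower lie between Stxbp5l (-2.75) and Syt3 (-0.43), and the 13 called higher between Stx5a (0.39) and Vamp5 (3.29).

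The cells were checked against marker lists. All 9 measured neuroendocrine markers were lower in GFP-high cells, led by Ncam1 (-2.67 ± 0.35) and Scg3 (-2.62 ± 0.32). Their signal summed on the linear scale ran from 1714 to 3550 in GFP-high arrays and from 10746 to 11582 in GFP-negative arrays. Markers of lung epithelium moved the other way. Club cell markers were higher for 7 of 8, with Aldh1a7 lower at -0.92 ± 0.20 (summed signal 42668 to 47575 in GFP-high arrays and 4651 to 7526 in GFP-negative arrays), led by Hp (5.34 ± 0.14) and Gabrp (5.24 ± 0.22). Alveolar type 2 markers were higher for 8 of 8, led by Lamp3 (5.76 ± 0.14), with sums of 14482 to 17990 in GFP-high and 836 to 1344 in GFP-negative arrays. Alveolar type 1 markers were higher for 8 of 8, led by Ager (4.53 ± 0.12), with sums of 7392 to 8336 against 1716 to 2234. Of 8 endothelial markers only Kdr passed (3.87 ± 0.13), with summed signals of 962 to 1125 in GFP-high arrays and 257 to 271 in GFP-negative arrays. Kdr had the largest values of the endothelial list and so weighs most in these sums, while the median change of that list was 0.11. Of 9 leukocyte markers only Coro1a passed (-1.09 ± 0.20), with sums of 351 to 459 against 477 to 520. Of 7 fibroblast markers only Dcn passed, and it was lower (-1.47 ± 0.38; sums 674 to 1532 against 1578 to 2501). Dcn had the largest values of this list and so weighs most in the sums. The median change of the list was 0.22, and 3 of the 7 were higher at an unadjusted p under 0.05 by limma. Of 8 neuron markers Prph (-1.83 ± 0.54), Nefh (-1.33 ± 0.16) and, named after its value was seen, Gad1 (-1.10 ± 0.27) were lower (sums 324 to 387 against 512 to 956). Prph read 6.71, 6.13 and 8.66 in GFP-negative replicates 1, 2 and 3. Replicate 3 thus weighs most in the fall of Prph and lifts the upper end of the GFP-negative sums. Of 3 Schwann cell markers 0 passed, and 0 did at an unadjusted p under 0.05 by limma (sums 97 to 106 against 79 to 102). The table holds no detection calls, so no marker can be listed as at 0. The neuroendocrine and epithelial lists moved in the same arrays as every gene group below, and their part in those results was not tested. In such bulk samples fewer cells of a type and less RNA per cell cannot be told apart.

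Promoters of 6 genes are shown, of which Vamp8, Vamp5 and Stxbp6 head the rises, and Syt1, Syn1 and Unc13a are among the genes that fell. The fallen genes shown were not picked by size alone. Stxbp5l (-2.75), Snap91 (-2.35) and Rab3c (-2.33) fell further than Syn1 (-2.17) and Unc13a (-2.09) and are not shown. Syn1 and Unc13a are also the only members with a match to the RE1 left arm named below. The promoters shown are therefore no neutral sample of the members for these patterns. The RefSeq promoter table (GRCm38.p6, 250 bases before to 50 after the start) held 57 of the 73 members, among them 26 called lower and 10 called higher. In all, 4 sequence patterns were searched on both strands, chosen with these results known. They were the consensus of RE1, the element bound by REST, a repressor of neuronal genes whose own gene Rest was higher in GFP-high cells (1.83 ± 0.17), its left arm TCAGCACC, the E-box CAGCTG, of the kind bound by basic helix-loop-helix factors, and the core TGGGAA of the Notch effector RBPJ. The E-box reads the same on both strands, and the left arm is contained in some forms of the RE1 consensus. All 6 lie on the minus strand, at chr6:72390618-72390917 (Vamp8), chr6:72380419-72380718 (Vamp5), chr12:45074434-45074733 (Stxbp6), chr10:109009062-109009361 (Syt1, the second of its listed promoters), chrX:20920869-20921168 (Syn1) and chr8:71671708-71672007 (Unc13a). Capitals mark the matches, and Vamp8 and Vamp5 have none. The other listed promoter of Syt1, at chr10:109010926-109011225, has none either and is not shown.
Vamp8: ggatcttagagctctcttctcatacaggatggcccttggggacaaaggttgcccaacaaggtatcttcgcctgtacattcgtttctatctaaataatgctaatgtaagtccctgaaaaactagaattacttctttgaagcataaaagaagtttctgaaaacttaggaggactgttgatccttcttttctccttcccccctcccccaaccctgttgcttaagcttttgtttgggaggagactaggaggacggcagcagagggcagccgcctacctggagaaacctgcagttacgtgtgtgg
Vamp5: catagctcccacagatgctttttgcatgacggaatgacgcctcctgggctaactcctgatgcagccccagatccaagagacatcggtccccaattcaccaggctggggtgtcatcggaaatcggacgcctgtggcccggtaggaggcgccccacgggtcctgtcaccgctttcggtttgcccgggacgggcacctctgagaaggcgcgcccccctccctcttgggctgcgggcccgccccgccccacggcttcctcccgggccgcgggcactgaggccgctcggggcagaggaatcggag
Stxbp6: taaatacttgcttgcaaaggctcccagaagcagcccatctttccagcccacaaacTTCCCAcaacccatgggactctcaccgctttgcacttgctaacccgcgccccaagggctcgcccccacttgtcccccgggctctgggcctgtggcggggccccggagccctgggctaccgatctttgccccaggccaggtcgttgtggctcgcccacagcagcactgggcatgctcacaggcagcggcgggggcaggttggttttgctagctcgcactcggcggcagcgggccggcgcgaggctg
Syt1: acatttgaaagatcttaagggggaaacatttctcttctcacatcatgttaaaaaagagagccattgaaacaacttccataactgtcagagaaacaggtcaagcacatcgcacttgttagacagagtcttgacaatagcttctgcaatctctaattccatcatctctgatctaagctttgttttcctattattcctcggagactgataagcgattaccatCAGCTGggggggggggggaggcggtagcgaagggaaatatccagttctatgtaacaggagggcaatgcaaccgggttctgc
Syn1: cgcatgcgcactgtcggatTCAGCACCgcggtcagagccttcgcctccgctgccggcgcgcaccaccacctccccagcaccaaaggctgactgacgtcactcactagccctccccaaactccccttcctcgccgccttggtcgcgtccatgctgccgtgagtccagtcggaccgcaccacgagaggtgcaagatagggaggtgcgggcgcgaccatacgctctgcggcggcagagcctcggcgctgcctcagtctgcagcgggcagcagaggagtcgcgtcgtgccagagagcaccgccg
Unc13a: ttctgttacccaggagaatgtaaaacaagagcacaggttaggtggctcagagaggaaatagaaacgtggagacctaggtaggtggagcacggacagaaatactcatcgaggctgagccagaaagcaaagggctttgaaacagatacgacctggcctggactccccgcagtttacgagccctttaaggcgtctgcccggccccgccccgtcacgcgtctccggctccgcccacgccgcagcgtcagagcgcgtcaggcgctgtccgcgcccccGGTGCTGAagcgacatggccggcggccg

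Among these 6 promoters the left arm of RE1 stood in Syn1 and Unc13a, the E-box in Syt1, and the RBPJ core in Stxbp6 on the opposite strand. Over the members, the left arm was found in 2 of 57, Syn1 and Unc13a, both called lower, and in 1.85% of all genes with a promoter in the table (1.65% of all promoters). The full RE1 consensus was found in 0 of 57 members and in 0.0777% of all genes with a promoter (0.0639% of all promoters). At so low a share, 0 matches among 57 members say little. The E-box was found in 18 of 57 members (31.6%), of which 10 were called lower and 1 higher. It stood in 18.3% of all genes with a promoter (16.3% of all promoters). The RBPJ core was found in 16 of 57 members (28.1%), of which 6 were called lower and 3 higher, and in 28.3% of all genes with a promoter (25.6% of all promoters). These are matches of letters within a short window and not sites of binding.

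The vesicle SNAREs split. Vamp2, the main vesicle SNARE of synaptic vesicles, read 8.48, 8.64 and 8.54 in GFP-high cells, against 9.21, 9.22 and 9.03 in GFP-negative cells. The groups did not overlap, and the fall was modest beside those of its partners below (-0.60 ± 0.11, 1.52-fold, adjusted p = 0.00391). Vamp8, which serves late endosomes and the secretory granules of epithelial and blood cells, read 9.41, 9.51 and 9.25 in GFP-high cells, against 7.37, 7.52 and 6.99 in GFP-negative cells. Every GFP-high array lay well above every GFP-negative array (2.10 ± 0.16, 4.27-fold, adjusted p = 2.64e-05). Vamp5, which was described in muscle, read 8.69, 8.87 and 8.46 in GFP-high cells, against 5.02, 5.71 and 5.41 in GFP-negative cells. It had the largest rise of all 73 members (3.29 ± 0.19, 9.78-fold, adjusted p = 5.38e-06). Vamp5 and Vamp8 are next to each other on chromosome 6, with no other protein-coding gene between them in the RefSeq table, and were the only members that neighbour each other in this way. The endosomal recycling SNARE Vamp3 read 7.30, 7.06 and 7.36 in GFP-high cells, against 7.77, 7.68 and 7.36 in GFP-negative cells. The groups were apart only by a margin lost in rounding, and the difference did not pass (-0.36 ± 0.15, adjusted p = 0.0973), and it passed without GFP-negative replicate 3 (-0.49, adjusted p = 0.0387). The remaining members, Vamp1 (-0.56 ± 0.22), Vamp4 (-0.07 ± 0.10) and Vamp7 (-0.28 ± 0.20), did not pass either. Over the 13 alternative limma fits the lowest adjusted p was 0.0176 for Vamp1 and 0.0422 for Vamp7.

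The SNAP-25 family showed a contrast between its neuronal and its general member. Snap25, the plasma membrane SNARE of neurons and endocrine cells, read 9.27, 9.19 and 10.29 in GFP-high cells, against 11.58, 12.0005 and 11.67 in GFP-negative cells. All GFP-high arrays were below all GFP-negative arrays, with GFP-high replicate 3 closest to them (-2.16 ± 0.28, 4.48-fold, adjusted p = 0.000463). Snap23, its counterpart in most other cells, read 8.30, 7.92 and 8.54 in GFP-high cells, against 7.36, 7.40 and 7.65 in GFP-negative cells. Here the GFP-high arrays were the higher ones (0.78 ± 0.17, 1.72-fold, adjusted p = 0.00802). Snap29, which takes part in the fusion of autophagosomes with lysosomes, was also higher (0.40 ± 0.11, adjusted p = 0.0272). That call was lost in 4 of 13 alternative fits, those without GFP-high replicate 2 or 3 or GFP-negative replicate 1 or 3, with adjusted p between 0.0129 and 0.0987 over all 13. Snap47 did not pass (-0.20 ± 0.13).

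Of 14 syntaxins, 3 were lower, 3 were higher and 8 did not pass, and the median change was 0.07, beside 17% lower, 13% higher and a median of 0.01 over all genes. Stx1a, the neuronal syntaxin of the plasma membrane, read 5.88, 6.12 and 6.28 in GFP-high cells, against 7.63, 7.81 and 7.25 in GFP-negative cells. The groups did not overlap, and this was the largest syntaxin change in either direction (-1.47 ± 0.17, 2.77-fold, adjusted p = 0.000274). Stx3, the apical syntaxin of epithelia, read 8.04, 8.17 and 8.01 in GFP-high cells, against 7.93, 8.15 and 7.83 in GFP-negative cells. Stx4a, the Stx4 gene of the basolateral membrane, read 7.61, 7.69 and 7.36 in GFP-high cells, against 7.53, 7.32 and 7.24 in GFP-negative cells. For both the arrays of the groups overlapped, and the 95% confidence interval of the difference was -0.18 to 0.39 for Stx3 and -0.12 to 0.50 for Stx4a. Stx2, another plasma membrane syntaxin, fell by 0.59 ± 0.12. Stx11, known from granule release by cytotoxic lymphocytes, rose by 0.70 ± 0.14 (adjusted p = 0.00557). Stx19 did not pass (0.49 ± 0.21). Among the 8 syntaxins of inner membranes the changes were small, from -0.50 for the endosomal Stx7 to 0.43 for Stx17. Stx17, the autophagosome syntaxin that pairs with Snap29 and Vamp8, rose by 0.43 ± 0.11, and the Golgi syntaxin Stx5a rose by 0.39 ± 0.12. The call for Stx7 was lost in 3 of 13 alternative fits, those without GFP-high replicate 2 or GFP-negative replicate 1 or 2 (highest adjusted p = 0.0702). That for Stx17 was lost in 4, without GFP-high replicate 1 or 2 or GFP-negative replicate 1 or 3 (highest adjusted p = 0.0624). That for Stx5a was lost in 7, with each array centred on its median, with the replicate block and without any single array except GFP-negative replicate 2 (highest adjusted p = 0.126). Stx6, Stx8, Stx12, Stx16 and Stx18 did not pass, with changes between -0.37 ± 0.15 for Stx12 and 0.42 ± 0.15 for Stx8. In some alternative limma fits Stx8, Stx12 and Stx19 did pass, with lowest adjusted p of 0.0329, 0.0328 and 0.0303.

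Genes of syntaxin-binding proteins held the largest fall and the second largest rise of the set. Stxbp5l, one of the tomosyns, which occupy syntaxins and so restrain release, read 5.40, 4.83 and 5.97 in GFP-high cells, against 8.23, 8.04 and 8.18 in GFP-negative cells. The GFP-high arrays all lay below the others but were spread over more than 1 log2 unit (-2.75 ± 0.25, 6.72-fold, adjusted p = 7.88e-05). The other tomosyn gene, Stxbp5, also fell by 0.79 ± 0.11 (adjusted p = 0.000716). Stxbp6, which encodes amisyn, a protein with a SNARE-like domain that also binds syntaxin, read 8.89, 8.62 and 8.59 in GFP-high cells, against 5.50, 5.78 and 5.81 in GFP-negative cells. It ran opposite to the tomosyns, with tight arrays in both groups (3.00 ± 0.14, 8.01-fold, adjusted p = 1.50e-06). Stxbp2 and Stxbp3 are of the Munc18 type. Stxbp3, the widely expressed Munc18 that serves Stx4, read 8.50, 8.30 and 8.46 in GFP-high cells, against 7.94, 7.73 and 7.40 in GFP-negative cells. The groups were separate and the rise passed (0.73 ± 0.15, adjusted p = 0.00664). Stxbp2, which partners Stx3 and Stx11 in epithelial and blood cells, read 9.25, 9.36 and 9.20 in GFP-high cells, against 8.97, 9.02 and 8.80 in GFP-negative cells. The GFP-high arrays were all higher, and the adjusted p lay just above the threshold (0.34 ± 0.11, adjusted p = 0.0526). It was below 0.05 in 4 of the alternative fits, at 0.0236 to 0.0477. Stxbp4 (-0.19 ± 0.12) and Stxbp3-ps (-0.02 ± 0.15) did not pass.

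Of the 4 complexins only Cplx2 passed. Cplx2 read 8.35, 8.24 and 8.93 in GFP-high cells, against 10.31, 10.38 and 10.18 in GFP-negative cells. The groups did not overlap (-1.79 ± 0.18, 3.45-fold, adjusted p = 0.000142). Cplx1, the other complexin of brain synapses, read 5.32, 5.47 and 5.29 in GFP-high cells, against 5.65, 5.51 and 6.52 in GFP-negative cells. Its GFP-negative replicate 3 stood above the other GFP-negative arrays, and the difference did not pass (-0.53 ± 0.24, adjusted p = 0.141). Without that array it was -0.22. The complexins of retinal ribbon synapses, Cplx3 (0.20 ± 0.11) and Cplx4 (0.20 ± 0.12), did not pass. Cplx4, Syt10 and Unc13c were the 3 members among the lowest 30% of genes by mean value, where changes on this scale are compressed.

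The Unc13 priming factors divided by member. Unc13a, the main Munc13 of brain synapses, read 6.73, 6.95 and 7.79 in GFP-high cells, against 8.94, 9.49 and 9.29 in GFP-negative cells. All GFP-high arrays were lower (-2.09 ± 0.27, 4.25-fold, adjusted p = 0.000456). Unc13d, which encodes Munc13-4 and works in granule release by blood cells with Stx11 and Stxbp2, read 5.85, 6.46 and 6.18 in GFP-high cells, against 5.50, 5.35 and 5.45 in GFP-negative cells. The GFP-high arrays were all higher (0.73 ± 0.16, 1.66-fold, adjusted p = 0.00849). The arrays of Unc13b, the other widely used Munc13, overlapped, with a 95% confidence interval of -0.23 to 0.24, and Unc13c did not pass (0.22 ± 0.18). Of the 9 leukocyte markers 0 were higher by limma, also at an unadjusted p under 0.05, and Coro1a was lower. The part of blood cells in the value of Unc13d was not tested.

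Scaffolds and GTPases that dock vesicles at the release site fell with the exception of Rims4 and Rab3d. The Rims proteins tether calcium channels and Rab3-bearing vesicles. Rims1 read 5.40, 5.52 and 5.68 in GFP-high cells, against 6.21, 6.04 and 6.52 in GFP-negative cells. The groups did not overlap (-0.73 ± 0.15, adjusted p = 0.00584). Rims2 (-2.02 ± 0.22) and Rims3 (-1.64 ± 0.18) fell further, and Rims4 did not pass (0.00 ± 0.19). Rab3c, one of the vesicle-bound Rab3 GTPases, read 6.04, 6.06 and 6.58 in GFP-high cells, against 8.50, 8.84 and 8.34 in GFP-negative cells. The arrays were far apart (-2.33 ± 0.19, 5.03-fold, adjusted p = 4.20e-05), whereas a second array row for Rab3c, with means of 6.56 over GFP-high arrays and 6.55 over GFP-negative arrays, did not pass (0.01, adjusted p = 0.976). Rab3a, the main Rab3 of synaptic vesicles, read 7.12, 7.23 and 6.98 in GFP-high cells, against 7.59, 7.90 and 7.73 in GFP-negative cells. It was lower without overlap but by less (-0.63 ± 0.13, 1.55-fold, adjusted p = 0.0055), and Rab3b fell by 1.81 ± 0.20. Rab3d, found on granules of exocrine and other secretory cells, read 7.67, 7.76 and 7.97 in GFP-high cells, against 7.77, 7.89 and 7.58 in GFP-negative cells. The groups overlapped, the 95% confidence interval was -0.25 to 0.35, and its second row gave 0.04.

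Synaptotagmins made up the largest family, and 12 of 17 were lower, 2 were higher and 3 did not pass, with a median change of -1.44. Over all genes 17% were lower and 13% were higher, with a median of 0.01. Syt1, the fast calcium sensor of synaptic and dense-core vesicles, read 8.01, 7.88 and 8.94 in GFP-high cells, against 10.56, 10.81 and 10.66 in GFP-negative cells. The groups were separate, with GFP-high replicate 3 highest among its own (-2.40 ± 0.25, 5.28-fold, adjusted p = 0.000173). Syt7, a slower sensor with higher calcium affinity that also acts on lysosomes and endocrine granules, read 7.14, 7.25 and 8.06 in GFP-high cells, against 9.45, 9.73 and 9.34 in GFP-negative cells. It fell nearly as far (-2.03 ± 0.24, 4.07-fold, adjusted p = 0.000288). The sensors Syt2 (-0.9991 ± 0.11), Syt5 (-2.09 ± 0.32) and Syt9 (-1.59 ± 0.21) fell too. So did Syt4 (-2.01 ± 0.28) and Syt11 (-1.53 ± 0.16), which bind calcium weakly or not at all. Other members that fell were Syt14 (-2.04 ± 0.16), Syt17 (-1.51 ± 0.19), Syt16 (-1.44 ± 0.16), Syt13 (-1.0009 ± 0.13) and Syt3 (-0.43 ± 0.12). The 2 further rows of Syt4 fell less (-0.76 and -0.595). Syt8 read 6.71, 7.19 and 6.77 in GFP-high cells, against 5.89, 5.82 and 5.88 in GFP-negative cells. Every GFP-high array was above the tightly grouped GFP-negative arrays (1.03 ± 0.15, 2.04-fold, adjusted p = 0.000809). Syt12 rose by 0.53 ± 0.15 (adjusted p = 0.0272). The call for Syt3 was lost in 5 of 13 alternative fits, those without any single array except GFP-high replicate 2 (highest adjusted p = 0.104). That for Syt12 was lost in 4, without GFP-high replicate 1 or 2 or GFP-negative replicate 1 or 3 (highest adjusted p = 0.0978). Syt6 (0.21 ± 0.12), Syt10 (-0.11 ± 0.15) and Syt15 (0.04 ± 0.12) did not pass.

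Syp and the 3 Sv2 genes, which encode vesicle membrane proteins, were lower. Synaptophysin, the abundant vesicle protein used to recognise neuroendocrine tumours, read 6.69, 6.49 and 7.15 in GFP-high cells, against 8.56, 8.75 and 8.48 in GFP-negative cells. The groups did not overlap (-1.82 ± 0.18, 3.54-fold, adjusted p = 0.000105). A second row for Syp had means of 3.97 over GFP-high arrays and 3.88 over GFP-negative arrays and did not pass (0.09, adjusted p = 0.703). The vesicle glycoprotein Sv2a, which binds synaptotagmin, read 5.04, 4.74 and 5.65 in GFP-high cells, against 6.70, 6.97 and 6.84 in GFP-negative cells. Its relative Sv2b read 4.77, 4.71 and 4.84 in GFP-high cells, against 6.39, 5.74 and 5.96 in GFP-negative cells. Both fell without overlap (-1.69 ± 0.22 for Sv2a with adjusted p = 0.000456, and -1.25 ± 0.17 for Sv2b with adjusted p = 0.000578). Sv2c fell by 0.53 ± 0.14, a call lost in 3 of 13 alternative fits, those without GFP-high replicate 1 or 3 or GFP-negative replicate 1 (highest adjusted p = 0.0759).

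Synapsins, which cluster vesicles in reserve, went in both directions. Syn1 read 6.38, 6.53 and 7.42 in GFP-high cells, against 8.77, 9.20 and 8.86 in GFP-negative cells. The GFP-high arrays were all lower, and GFP-high replicate 3 was nearest to the GFP-negative arrays (-2.17 ± 0.26, 4.49-fold, adjusted p = 0.000327). Syn2 fell by 2.09 ± 0.16 (adjusted p = 2.84e-05). Syn3 read 7.94, 8.11 and 7.95 in GFP-high cells, against 6.77, 7.20 and 6.96 in GFP-negative cells. It was higher in every GFP-high array (1.02 ± 0.14, 2.03-fold, adjusted p = 0.000588). In the RefSeq table each synapsin gene overlaps a gene of the TIMP metalloprotease inhibitors. Timp3, which overlaps Syn3, rose by 1.71 ± 0.16, while Timp1, which overlaps Syn1 (0.07 ± 0.13), and Timp4, which overlaps Syn2 (-0.03 ± 0.18), did not pass. The sources used here do not say whether a row reads 1 strand only, and the part of Timp3 in the value of Syn3 was not tested. Snap91, which encodes the clathrin adaptor AP180 that retrieves vesicle membrane, read 5.47, 5.13 and 6.44 in GFP-high cells, against 7.91, 7.76 and 8.42 in GFP-negative cells. The arrays of each group were spread, but did not overlap (-2.35 ± 0.32, 5.1-fold, adjusted p = 0.00062).

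**Figure D2:**
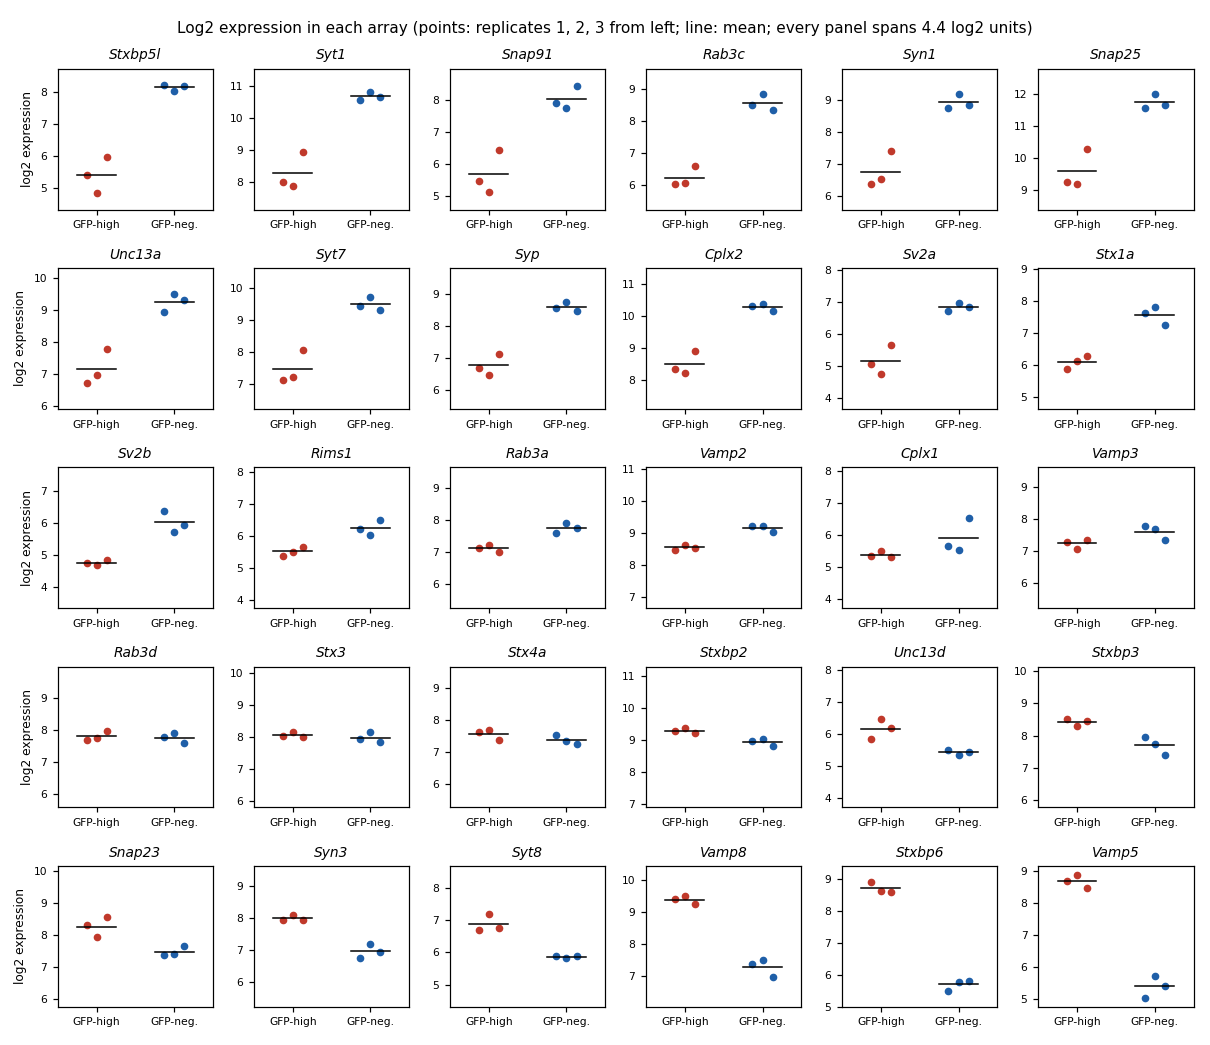
Log2 expression (y axis, the same span in every panel) in each GFP-high (left) and GFP-negative (right) array for the 30 members described array by array, with the group mean as a line. Panels run from the largest fall, Stxbp5l, to the largest rise, Vamp5, and in the top row GFP-high replicate 3 is the highest of its group.

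GFP-high replicate 3 read higher than the other GFP-high arrays for most members that fell. Among the 34 members called lower it was the highest GFP-high array for 26, against 2 for replicate 1 and 6 for replicate 2. Among the 25 members that fell by at least 1 it was the highest for 24. The median difference of the 34 members from the GFP-negative mean was -1.78 in GFP-high replicate 1, -1.95 in replicate 2 and -1.35 in replicate 3. Over the 9 neuroendocrine markers it was -2.51, -2.84 and -1.73 in the same order. The 13 members called higher had medians of 0.81, 0.83 and 0.77, closer together. Club cell markers stood at 4.70, 4.64 and 4.71 and alveolar type 2 markers at 3.85, 4.17 and 4.69. Alveolar type 1 markers stood at 2.22, 1.90 and 1.57, lowest in replicate 3, and fibroblast markers at 0.31, -0.00 and 0.55, highest in replicate 3. The part of these lists in the spread of the members was not tested. The 25 members that fell by at least 1 had a median SD of 0.39 over the GFP-high arrays and 0.21 over the GFP-negative arrays, where all genes had 0.15 in both. Without GFP-high replicate 3 the counts were 33 lower and 12 higher.

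**Figure D3:**
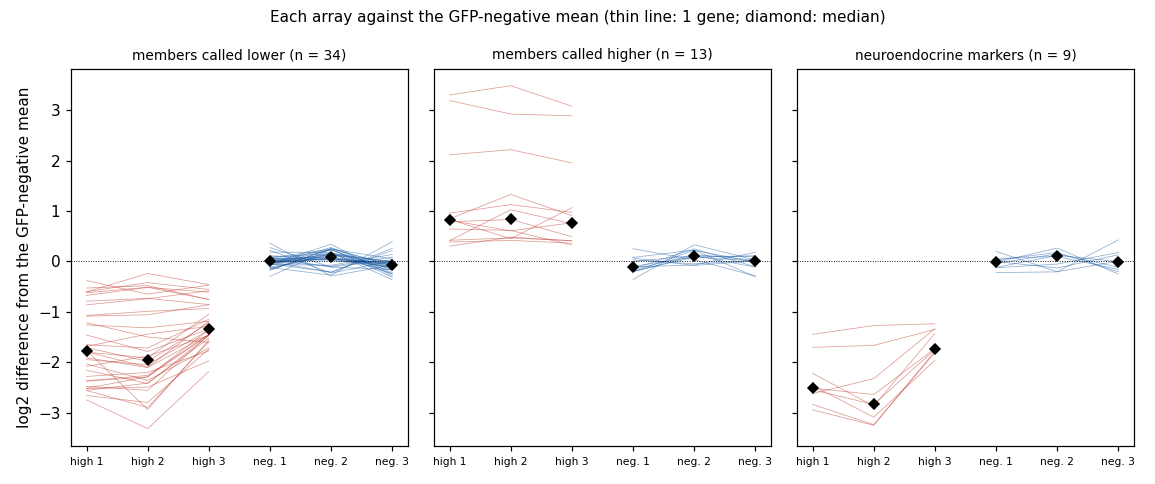
Log2 difference of each array from the GFP-negative mean (y axis) for members called lower, members called higher and neuroendocrine markers, with a thin line per gene and a diamond at the median. In the first and last panel GFP-high replicate 3 lies nearest to the GFP-negative arrays (medians -1.35 and -1.73).

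Other genes of the release cycle, taken from 6 lists outside the rule, had 69 measured genes, of which 35 were lower, 7 were higher and 27 did not pass, with a median change of -0.37. Over all genes 17% were lower and 13% higher, with a median of 0.01. The count of 7 higher was 4 without GFP-high replicate 2 and 4 without GFP-negative replicate 1. The scaffold of the active zone fell in 10 of 12 genes by limma, and 0 were higher, also at an unadjusted p under 0.05. Piccolo, Pclo, fell by 1.68 ± 0.19. The adaptor Lin7a (-1.43 ± 0.39) and the liprins Ppfia2 (-1.43 ± 0.19) and Ppfia3 (-1.28 ± 0.12) fell as well. Retrieval of vesicle membrane by endocytosis was lower for 10 of 13 genes, and 0 were higher by limma (1 at an unadjusted p under 0.05). Its largest falls were those of auxilin, Dnajc6 (-2.44 ± 0.28), amphiphysin, Amph (-1.83 ± 0.20), the neuronal dynamin Dnm1 (-1.78 ± 0.21) and Pacsin1 (-1.64 ± 0.19).

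SNARE recycling, priming and dense-core vesicle release factors split, with 8 of 15 lower and 4 higher, beside 17% lower and 13% higher over all genes. Cadps, the CAPS protein that primes dense-core vesicles, fell by 2.48 ± 0.22, the calcium sensor Doc2b fell by 2.01 ± 0.16 and the neuronal SNAP adaptor Napb fell by 1.67 ± 0.24. Sytl2, a synaptotagmin-like effector of Rab27, rose by 2.94 ± 0.21. The other 3 rises were those of Sytl4 (1.61 ± 0.11), Snapin (0.82 ± 0.13) and Sytl5 (0.57 ± 0.18), named here after their values were seen. The synaptotagmin-like genes did not rise as a family. Sytl1 was lower (-1.025 ± 0.15) and Sytl3 did not pass (-0.03 ± 0.23). Rab27a was lower (-0.56 ± 0.15) and Rab27b did not pass (-0.22 ± 0.14), all named after their values were seen. Vesicle membrane and chaperone proteins had 3 lower and 2 higher of 11. They included falls of Scamp5 (-1.84 ± 0.18), Syngr3 (-0.99 ± 0.15) and Sncb (-0.70 ± 0.17) and a rise of the synaptophysin-like gene Sypl (1.49 ± 0.11). The other rise, of Syngr2 (0.41 ± 0.12), is named after its value was seen. Beside the same shares of all genes, the exocyst, which tethers vesicles in every cell type, had 3 lower of 8 and 0 higher by limma, also at an unadjusted p under 0.05. The falls were all smaller than 1, namely Exoc6 (-0.59 ± 0.14), Exoc5 (-0.56 ± 0.11) and Exoc4 (-0.48 ± 0.11). SNAREs of the endoplasmic reticulum and Golgi outside the rule had 1 lower, Ykt6 (-0.66 ± 0.12), and 1 higher, Use1 (0.37 ± 0.12), of 10, with a median of 0.01, the same as over all genes. Club and alveolar markers were higher, and neuroendocrine markers lower, in the same GFP-high arrays.

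**Figure D4:**
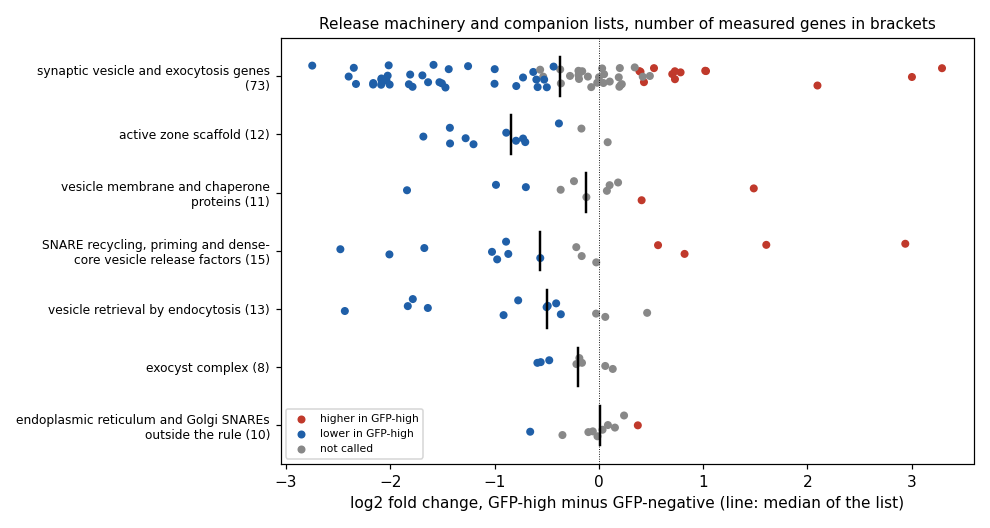
Log2 fold change (x axis, GFP-high minus GFP-negative) of each measured gene in the 73-gene set and in 6 lists of companion genes, with the list median as a line. The active zone scaffold lies furthest to the left (10 of 12 lower), and the endoplasmic reticulum and Golgi SNAREs lie around 0 (median 0.01).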

How the data were processed

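The deposited table holds log2 expression values of Affymetrix Mouse Gene 2.0 ST arrays, made by the authors with RMA, per the submitters' processing notes (version not given in the sources used here). RMA normalizes between arrays, which can reduce a global shift, and it compresses low values; the medians of the deposited arrays ran from 5.3 to 5.43. Of 41344 rows, 23520 name exactly 1 gene; 23327 of these were found in the RefSeq gene table by Entrez identifier, which changed 0 symbols. The highest-mean row of each gene gave 22179 genes. Arrays correlated at 0.987 to 0.991 within groups and 0.918 to 0.940 between them; with 3 arrays in each group, their small number sets the precision. A permutation of 3 against 3 cannot give p below 0.10.

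All genes were fitted with limma (lmFit, eBayes, 4.50 prior and 4 residual degrees of freedom), GFP-high minus GFP-negative, with two-sided p-values adjusted by Benjamini-Hochberg over all genes. No set test was made. Some genes of the lists are not reported here. The symbol pattern that fixes the members, the lists and the motifs were chosen with earlier results of these data known. Array values are given for a neuronal panel (16 genes, 14 measured), a general panel (10) and the 6 largest called changes each way, 30 genes in all; up to 4 called genes per companion list and up to 2 per marker list are named by rule, and others named from these lists were picked after their values were seen. Alternatives changed the row choice, scaling, low filter, variance model, replicate block, threshold and each array. Software was R 4.3.3, limma 3.58.1, Python 3.11.15, pandas 2.3.3 and matplotlib 3.10.9.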

Additional observations from a re-analysis of the deposited data

How the results depend on the processing

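Of the 47 members called, 47 kept their direction and 40 kept their call in all 13 alternative fits with 1 value per gene; the 7 others are named in the report with the fits that lost them. Over these fits 31 to 35 members were lower and 9 to 15 higher, and with every array row on its own 36 rows were lower and 13 higher; leaving out 1 array gave 31 to 34 lower and 9 to 14 higher. At an adjusted p under 0.01 there were 31 lower and 9 higher members, and 2442 lower genes in all against 3773. With a minimum change of 1 there were 25 lower and 5 higher members, 1335 lower and 1249 higher genes in all, and 14 lower and 3 higher companion genes. Higher companion genes numbered 4 at 0.01 and 4 to 7 with 1 array left out. A stricter threshold can only lower such counts, and why they changed with 1 array left out was not tested. The median change of the members, -0.37, was -0.30 after quantile normalization, -0.47 without the lowest 30% of genes, where 70 members stay, and -0.43 to -0.30 with 1 array left out. Rab3d changed sign to -0.036 without GFP-high replicate 3 and to -0.034 without GFP-negative replicate 3, in a range up to 0.123 with 1 array left out; the cause was not tested. The labels do not say whether replicate numbers pair the samples. Deviations of same-numbered arrays correlated at 0.11, -0.03 and -0.00, and only GFP-high replicate 1 correlated best with its own number. With so few arrays these values cannot decide whether the samples were paired. With the replicate number as a block 35 members were lower and 13 higher, and 3443 genes in all were lower and 2729 higher, and 32 companion genes were lower and 5 higher.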

Other observations

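Rows that name a member together with another gene were outside the comparison. The row naming Rab3b and 8030443G20Rik averaged 4.396 over GFP-high arrays and 4.396 over GFP-negative arrays, while the Rab3b row used in the comparison fell by 1.81 ± 0.20 (log2 fold change ± SE). The row naming Vamp1 and E130112N10Rik averaged 6.54 over GFP-high arrays and 6.78 over GFP-negative arrays. Among other members that overlap a protein-coding gene in the RefSeq table, Stx18 did not pass while its overlapping gene Nsg1 was lower (-1.72), Unc13a was lower while Colgalt1 was higher (0.42), and Syt1 and its overlapping gene Gm5136 were both lower (-0.45 for Gm5136). Snap47 did not pass while Jmjd4 was higher (0.45). The other overlapping genes with a value, apart from the Timp genes, did not pass.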
